A study of Mus musculus with 8 samples.

Results

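Neurog2, Neurod4, Insm1, Dlx1, Dlx2, Dlx5, Gad1 and Gad2 are genes of early neurons and of the inhibitory neuron lineage. They were followed through every probe set annotated with exactly 1 of these symbols, which gave 13 probe sets for 8 genes among 34945 probe sets with 1 symbol for 18193 genes. The RNA came from NS5 cells, a mouse neural stem cell line that the labels place in the E11.5 embryonic brain, and was measured on 8 Affymetrix arrays. The cells were plated with FGF2 and EGF for 24 h, kept without growth factor for 4 h and treated for 48 h in 1 of 4 ways, with 2 arrays each. The groups are FGF2 and TGF-beta1, both without ethanol, and their counterparts with it, Ethanol and FGF2 as well as Ethanol and TGF-beta1. FGF2 and TGF-beta1 are listed at 10 ng per ul and ethanol at 400 mg/dl. The arms without ethanol are the controls, NS5 is 1 cell line, and since no label ties replicates to separate cultures, p-values measure only the spread between these samples, which may be technical. The design sets ethanol against no ethanol in either growth factor, and the growth factors against each other.

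Proneural transcription factors of the basic helix-loop-helix class push a neural progenitor out of the stem cell state and towards a neuron. Neurog2 is such a factor of the dorsal forebrain and other regions, Neurod4 acts downstream in the same cascade, and Insm1 is a zinc finger repressor found in newly committed neuronal and endocrine cells. In the ventral forebrain the homeobox factors Dlx1, Dlx2 and Dlx5 specify inhibitory neurons. These make GABA with the glutamate decarboxylases that Gad1 and Gad2 encode, GAD67 and GAD65.

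Of the 8 genes, 5 lie on chromosome 2 (GRCm38.p6). Gad1 spans 70561303 to 70602014, Dlx1 71528113 to 71533981 and Dlx2 71543408 to 71546754, so that 9426 bases separate the Dlx pair and 926098 bases separate Gad1 from Dlx1. Gad2 (22621015 to 22693877) and Insm1 (146221997 to 146225020) are farther off on the same chromosome. Neurog2 is on chromosome 3 (127632733 to 127635636), Dlx5 on chromosome 6 (6877801 to 6882068) and Neurod4 on chromosome 10 (130268152 to 130280254).

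RefSeq promoter windows of that build were matched for 6 of the 8 genes (Neurog2, Neurod4, Dlx1, Dlx2, Gad1 and Gad2). The 250 bases before the outermost start of Dlx2 (chr2:71546755-71547004, minus strand) and of Neurod4 (chr10:130280255-130280504, minus strand) are shown because both genes passed the test in an ethanol comparison. Capitals mark the letters CANNTG (E-box, the site class of basic helix-loop-helix factors), CACGNG (the site class of Hes repressors) or TAATTA (a homeodomain core), searched on both strands. CACGTG belongs to both of the first classes.
Dlx2: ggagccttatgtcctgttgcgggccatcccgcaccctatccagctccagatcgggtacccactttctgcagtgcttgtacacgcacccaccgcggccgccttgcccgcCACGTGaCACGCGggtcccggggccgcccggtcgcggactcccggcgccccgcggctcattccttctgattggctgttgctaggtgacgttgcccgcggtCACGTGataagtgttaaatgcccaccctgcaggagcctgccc
Neurod4: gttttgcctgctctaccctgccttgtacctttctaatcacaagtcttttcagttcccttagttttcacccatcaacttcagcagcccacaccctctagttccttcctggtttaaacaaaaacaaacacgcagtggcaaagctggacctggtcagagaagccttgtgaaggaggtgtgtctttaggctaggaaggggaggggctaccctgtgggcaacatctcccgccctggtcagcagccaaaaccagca

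The Dlx2 window held CACGTG at -142 and -42 and CACGCG at -135, counted to the first base of the match from the start. The Neurod4 window held none of the letters searched. Over all 32851 windows of this length, CANNTG was present in 66.2%, CACGNG in 23.5%, CAGCTG (an E-box form) in 13% and TAATTA in 4.84%. CACGNG was also found in the Gad1 window, and CANNTG in those of Gad1 and Gad2. CAGCTG and TAATTA were found in none of the windows of the 6 genes. These matches describe letters only.

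The arrays had all been scaled to a 2% trimmed mean of 500, and their median signal ran from 50.6 to 86.5. Medians were lowest on the arrays labelled FGF2 replicate 1 (50.7) and TGF-beta1 replicate 1 (50.6), which bears on weak probe sets. Both ethanol arrays labelled replicate 1 stood apart from their growth factor label. The signal of Fn1 (fibronectin, induced by TGF-beta1) was 120 and 139 with FGF2 alone and 3015 and 4109 with TGF-beta1 alone, but 6828 where the label was Ethanol and FGF2 replicate 1 and 124 where it was Ethanol and TGF-beta1 replicate 1. Pmepa1, a target of TGF-beta signalling, gave 935 and 548 with FGF2 alone and 8093 and 7315 with TGF-beta1 alone, but 8198 and 1081 on these arrays. They are called the doubted arrays here and were kept as labelled. Whether they were exchanged was not tested, and each value within 1 growth factor, or between the growth factors with ethanol, rests on their labels. Ethanol changes of the members are given without them as well, while the values of the wider gene lists are for all 8 arrays. Without the doubted arrays each ethanol group holds 1 array. The residual spread behind those standard errors and p-values then comes only from the arrays without ethanol. Of 10 neural stem and radial glia markers, 9 passed the signal filter, among them Sox2, Vim and Fabp7, where 10916 of all 18193 genes passed. So did 7 of 7 astrocyte, 10 of 15 pan-neuronal, 3 of 8 oligodendrocyte lineage and 4 of 6 mesenchymal markers. Of the microglial markers 0 of 5 passed, and of the endothelial markers 0 of 4. These counts do not set stem cells apart from astrocytes.

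Signals below are linear MAS5 intensities in replicate order 1 and 2. Changes are differences of log2(signal + 23.66), with the moderated standard error of limma, and a gene counts as risen or fallen at a Benjamini-Hochberg adjusted p of 0.05 over 10916 tested genes. Of the 8 genes, 5 passed the signal filter (Neurog2, Neurod4, Insm1, Dlx2 and Gad1) and 3 did not (Dlx1, Dlx5 and Gad2). Since the arrays hold bulk RNA, fewer cells of a type and less RNA per cell cannot be told apart.

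Averaged over both growth factors, Insm1 and Dlx2 rose with ethanol. In this comparison 0.183% of all genes rose, 20 of 10916. Neurod4, Gad1 and Neurog2 did not pass, and 0 of the 5 tested genes fell. Without the signal filter the estimate lay above 0 for 8 of 8 genes, where 54.5% of all 18193 genes did, with a median of 0.70 against 0.03. The 8 genes were chosen with earlier results of these data known. Without both doubted arrays limma called 0 of the 5 genes and 0% of all genes. At an unadjusted p under 0.05 these were 3 of 5 (Insm1, Dlx2 and Neurod4) and 10.5% of all genes.

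The Insm1 signal in FGF2 was 268 and 246 without and 509 and 734 with ethanol. In TGF-beta1 it was 220.0 and 244 without and 508 and 889.5 with ethanol. The 4 arrays with ethanol all lay above the 4 without, as they did for 2.98% of the genes tested. The log2 fold change in the average was 1.31 ± 0.23 (SE, 2.49-fold, 95% interval 0.78 to 1.85, limma adjusted p = 0.0231). Without both doubted arrays, with 1 ethanol array left in each growth factor, it was 1.64. The 2 residual degrees of freedom of that fit come only from arrays without ethanol.

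The same gene differed between its probe sets. The values above are those of 1455865_at, while 1421399_at gave 55.7 and 63.8 in FGF2, 114 and 72.3 in Ethanol and FGF2, 51.6 and 73.0 in TGF-beta1, and 57.5 and 103 in Ethanol and TGF-beta1. On this weaker probe set the groups with and without ethanol overlapped, and the change was 0.36 ± 0.30 (limma adjusted p = 0.750 in the fit over all probe sets). With the mean of both probe sets as the value of Insm1 the change was 0.84, not past the threshold (limma adjusted p = 0.0955).

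Dlx2 was measured by 1 probe set, with signals of 252 and 315 in FGF2 and 559 and 584 in Ethanol and FGF2. They were 294 and 318 in TGF-beta1 and 635 and 524 in Ethanol and TGF-beta1. As for Insm1, the 4 ethanol arrays all lay above the 4 others. The group means were 284 ± 44.2 in FGF2, 306 ± 17.4 in TGF-beta1, 572 ± 17.4 in Ethanol and FGF2 and 579.8 ± 78.5 in Ethanol and TGF-beta1 (SD, n = 2 each). In that order FGF2 and TGF-beta1 did not differ beyond their spread, nor did the ethanol groups. The change in the average was 0.91 ± 0.19 (1.88-fold, 95% interval 0.49 to 1.33, limma adjusted p = 0.0432) and 0.86 ± 0.24 without both doubted arrays (limma adjusted p = 0.268).

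The log2 values of the Dlx2 replicates differed by 0.06 to 0.29 within a group. In FGF2 this gap (0.29) was wider than that of Insm1 (0.11), Neurog2 (0.18) or Neurod4 (0.24), and in the 3 other groups it was the narrowest of the 5 tested genes. Its rise lay close to the threshold. With each array left out in turn the estimate ran from 0.84 to 0.99 and passed in 0 of 8 fits (limma adjusted p 0.0556 to 0.227). The estimate for Insm1 ran from 1.12 to 1.51 and passed in 2 of 8, those without either doubted array (limma adjusted p = 0.0419 and 0.0259). With the replicate number as a block, Dlx2 did not pass (limma adjusted p = 0.0853) and Neurod4 did (0.0369). The plot of adjusted p by array left out shows these values.

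**Figure D1:**
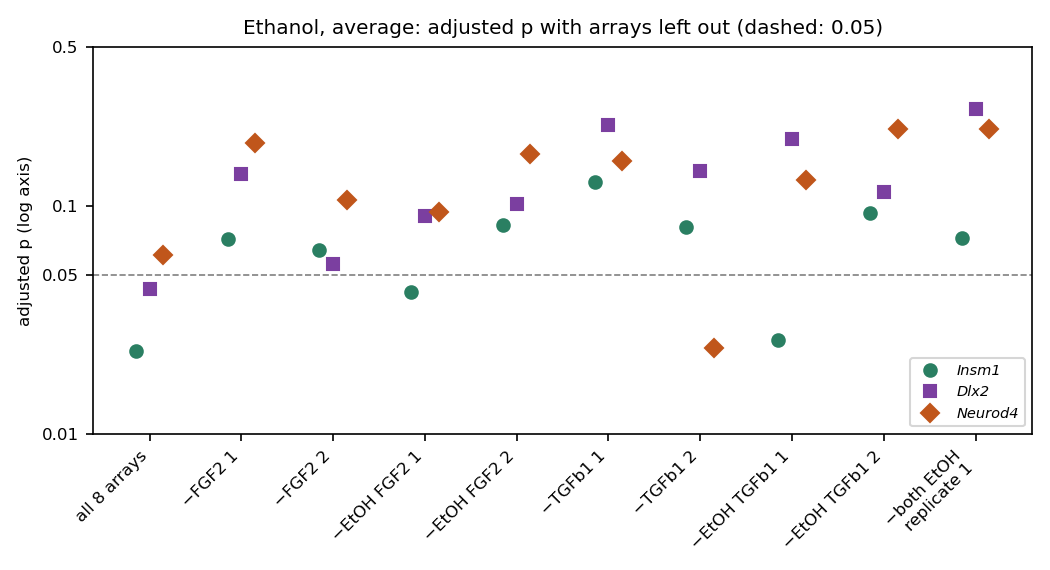
Adjusted p of Insm1 (circles), Dlx2 (squares) and Neurod4 (diamonds) for ethanol averaged over both growth factors, on a log axis, with all 8 arrays, with each array left out and without both ethanol arrays labelled replicate 1 (EtOH, ethanol; TGFb1, TGF-beta1; dashed line, 0.05). Dlx2 is below the line only with all arrays, at 0.0432.

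The neighbour of Dlx2 was near the low end of the scale. Dlx1 gave signals of 53.6 and 49.8 in FGF2, 82.3 and 38.3 in Ethanol and FGF2, 41.4 and 34.3 in TGF-beta1, and 68.9 and 63.0 in Ethanol and TGF-beta1. The ethanol groups overlapped with those without, since replicate 2 of Ethanol and FGF2 was lower than both FGF2 arrays. The change in the average was 0.32 ± 0.33 (limma adjusted p = 0.880 without the signal filter) and 0.11 without both doubted arrays. Whether the Dlx1 and Dlx2 changes differ was not tested.

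Dlx5 had signals of 5.66 and 59.7 in FGF2, 43.6 and 40.7 in Ethanol and FGF2, 34.3 and 66.8 in TGF-beta1, and 20.2 and 50.5 in Ethanol and TGF-beta1. Its lowest array was FGF2 replicate 1, one of the arrays with a low median, and no group stood apart. The change in the average was 0.03 ± 0.41, and 0.21 ± 0.55 without both doubted arrays.

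Of the glutamate decarboxylase genes Gad1 passed the signal filter. Its signal was 198 and 705 in FGF2, 363 and 606 in Ethanol and FGF2, 54.0 and 187.5 in TGF-beta1, and 661 and 424 in Ethanol and TGF-beta1. The highest of all 8 arrays was FGF2 replicate 2, an array without ethanol, so that the ranges with and without ethanol overlapped. In TGF-beta1 both ethanol arrays lay above both others. The change was 0.30 ± 0.63 within FGF2 and 2.11 ± 0.63 within TGF-beta1 (limma adjusted p = 0.936 and 0.260), and 1.20 ± 0.45 in the average (limma adjusted p = 0.347), none past the threshold.

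The sign of the Gad1 estimate within FGF2 changed with single arrays: it was 0.30 with all, -0.56 without FGF2 replicate 1, 1.16 without FGF2 replicate 2 and -0.055 without Ethanol and FGF2 replicate 2. On FGF2 replicate 2 the pan-neuronal marker list was also high, 0.48 log2 units above its mean over the 8 arrays. The weaker Gad1 probe set, 1416562_at, ranged from 33.4 to 78.4 without and from 40.3 to 103 with ethanol, with a change of 0.27 ± 0.35 in the average. Without both doubted arrays the Gad1 change was 0.65 ± 0.85 within FGF2, 1.81 ± 0.85 within TGF-beta1 and 1.23 ± 0.60 in the average.

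Gad2 was measured by probe sets 1421978_at and 1429589_at, both below the filter. The first gave 0.718 and 35.4 in FGF2, 69.7 and 44.8 in Ethanol and FGF2, 34.2 and 30.8 in TGF-beta1, and 27.4 and 30.9 in Ethanol and TGF-beta1. The second gave 1.35 and 11.9, 43.0 and 52.5, 7.77 and 36.0, and 10.5 and 37.1 in the same order. On both, the Ethanol and FGF2 arrays were above the FGF2 arrays and the TGF-beta1 groups overlapped. The change of the first was 1.08 ± 0.51 within FGF2 and -0.09 ± 0.51 within TGF-beta1 (limma adjusted p = 0.714 and 0.995 without the filter), and 0.85 and -0.04 without both doubted arrays. Most of these signals lie near or under the added constant of 23.66, so the size of such a change depends on it.

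**Figure D2:**
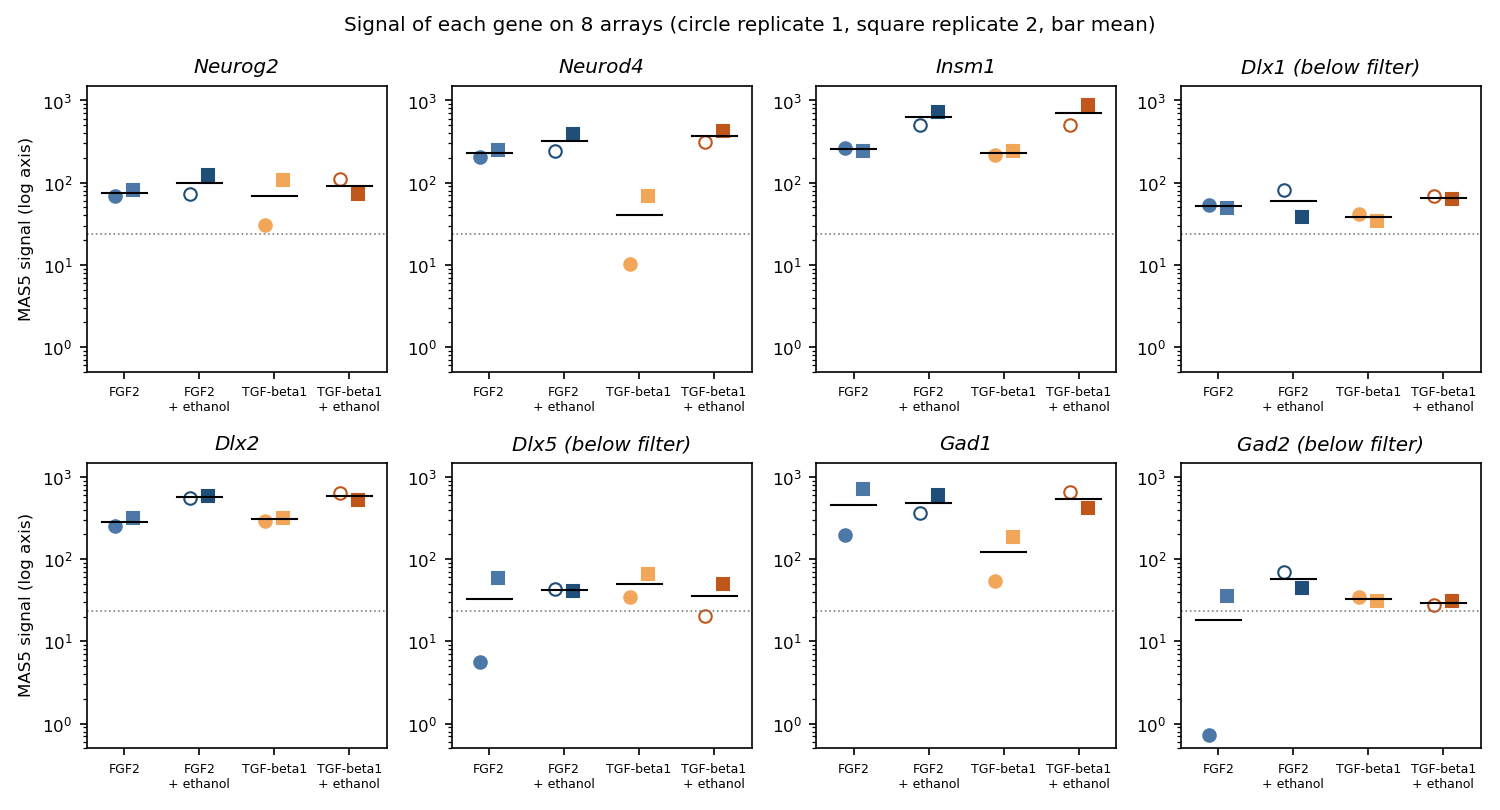
MAS5 signal (log axis) of the probe set used for each of the 8 genes, by group, with circles for replicate 1, squares for replicate 2, black bars for the mean of 2 arrays, and open circles for the doubted arrays. The dotted line is the constant of 23.66. Insm1 and Dlx2 lie at 508 or above on every ethanol array and below 319 on every other array.

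Among the proneural factors Neurod4 rose within TGF-beta1, where it was the 1 of 5 tested genes that rose. In that comparison 0.0733% of all genes rose, 8 of 10916. Neurod4 gave signals of 207 and 248 in FGF2, 243 and 395 in Ethanol and FGF2, 10.3 and 69.5 in TGF-beta1, and 311 and 423 in Ethanol and TGF-beta1. The TGF-beta1 arrays without ethanol were the lowest of all 8, and in FGF2 the ethanol array of replicate 1 lay between the FGF2 arrays.

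The Neurod4 change was 2.78 ± 0.49 within TGF-beta1 (6.87-fold, 95% interval 1.67 to 3.89, limma adjusted p = 0.0366) and 0.42 ± 0.49 within FGF2 (limma adjusted p = 0.857). Without both doubted arrays it was 0.74 ± 0.65 within FGF2 and 2.99 ± 0.65 within TGF-beta1 (limma adjusted p = 0.279), and limma called 0 of 5 genes and 0% of all genes there (2 of 5 and 8.61% at an unadjusted p under 0.05). The average was 1.60 ± 0.35 (limma adjusted p = 0.0610), 1.87 ± 0.46 without both doubted arrays (0.218), and 1.96 without TGF-beta1 replicate 2, which passed (0.0239). The signal of 10.3 on TGF-beta1 replicate 1 is under the added constant: without that array the change within TGF-beta1 was 2.05 (limma adjusted p = 0.272), and without TGF-beta1 replicate 2 it was 3.51 (0.128). The call held in 2 of the 8 fits that left out 1 array, those without an FGF2 array, and was lost with the replicate number as a block (limma adjusted p = 0.0580).

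The size of the change also depended on the constant and the probe set: it was 3.30 with a constant of 8, 1.76 with 100 and 1.70 with the mean of probe sets. TGF-beta1 replicate 1 was 1 of the arrays with a low median signal. With the arrays brought to 1 distribution by quantile normalization, the Neurod4 change within TGF-beta1 was 2.80 (limma adjusted p = 0.020). The 2 other Neurod4 probe sets were weaker. Probe set 1418054_at gave 101 and 112 in FGF2, 65.1 and 292 in Ethanol and FGF2, 27.9 and 66.8 in TGF-beta1 and 151 and 294 in Ethanol and TGF-beta1, with a change of 1.79 ± 0.60 within TGF-beta1 (limma adjusted p = 0.372 over all probe sets). On 1418055_at all 8 signals lay between 3.24 and 28.4. The probe set used, 1436694_s_at, has the suffix that Affymetrix gives to probes shared by several transcripts.

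Neurog2 showed no change past the threshold in the 6 comparisons. Its signal was 69.0 and 81.3 in FGF2, 73.7 and 123 in Ethanol and FGF2, 30.6 and 109 in TGF-beta1, and 111 and 73.1 in Ethanol and TGF-beta1. All 4 groups overlapped, and the TGF-beta1 arrays spanned more than either ethanol group. The change in the average was 0.35 ± 0.36, with a 95% interval from -0.46 to 1.17 (limma adjusted p = 0.814), and 0.38 ± 0.47 without both doubted arrays.

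**Figure D3:**
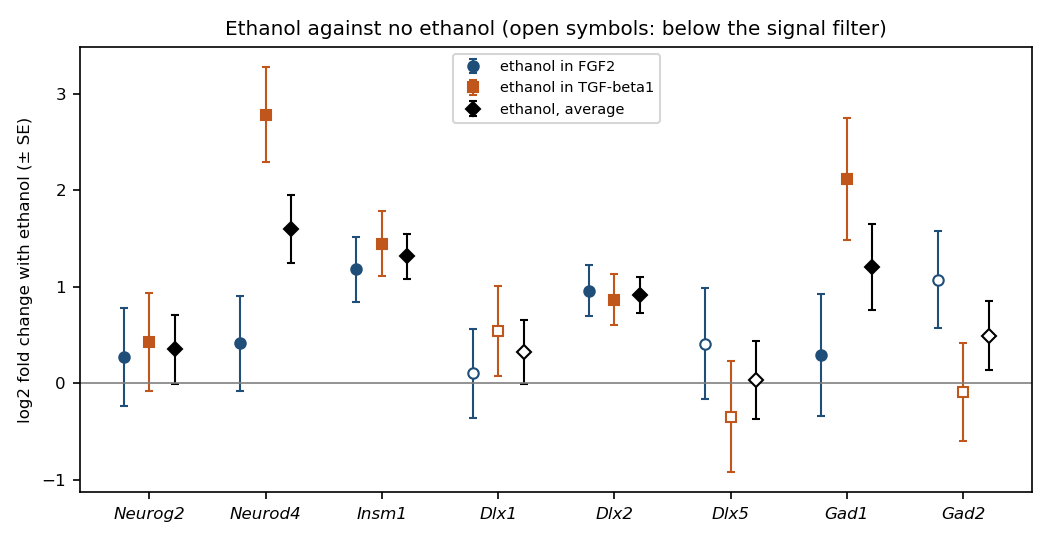
Log2 fold change with ethanol (± SE) of the 8 genes within FGF2 (circles), within TGF-beta1 (squares) and in the average (diamonds), with open symbols for genes below the signal filter. Insm1 and Dlx2 have similar estimates in both growth factors, from 0.87 to 1.45, whereas those of Neurod4 are 0.42 and 2.78.

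Within FGF2 alone, 0 of the 5 tested genes passed by limma, as for all genes (0% called). At an unadjusted p under 0.05 there were 2, Insm1 and Dlx2, and 8.3% of all genes. The Insm1 and Dlx2 changes were 1.18 ± 0.33 and 0.96 ± 0.26 (limma adjusted p = 0.324 and 0.303). Without both doubted arrays they were 1.44 and 0.99, each resting on 1 ethanol array. Within TGF-beta1 they were 1.45 ± 0.33 and 0.87 ± 0.26 (limma adjusted p = 0.0996 and 0.270). Without the doubted arrays they were 1.84 and 0.73 there, again resting on 1 ethanol array. The Gapdh 3'/5' signal ratio, which increases as RNA is degraded, was 3.33 and 3.48 in Ethanol and FGF2 and between 1.64 and 2.20 on the 6 other arrays. Its part in the FGF2 comparison was not tested, nor its part in the average, which holds the same arrays and in which Insm1 and Dlx2 were called. Within TGF-beta1 the ratios were 1.93 and 2.06 with and 1.70 and 2.20 without ethanol.

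The difference of the ethanol effects, TGF-beta1 minus FGF2, was tested directly. By limma 0 of the 5 genes passed, 0% of all genes did, and at an unadjusted p under 0.05 there were 1 of the 5 (Neurod4) and 4.43% of all genes. The Neurod4 difference was 2.36 ± 0.70 (95% interval 0.79 to 3.94, limma adjusted p = 0.831) and that of Gad1 1.82 ± 0.89 (-0.20 to 3.83). For Insm1 it was 0.27 ± 0.47 (-0.80 to 1.33), and for Dlx2 -0.09 ± 0.37 (-0.93 to 0.75). Without both doubted arrays the differences were 2.25 for Neurod4, 1.16 for Gad1, 0.40 for Insm1 and -0.26 for Dlx2.

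The growth factors were compared without ethanol, a comparison that shares the control arrays with those above. By limma 0 of 5 genes passed, with 0% of all genes, and 2 of 5 (Neurod4 and Gad1) had an unadjusted p under 0.05, against 4.97% of all genes. The Neurod4 difference, TGF-beta1 minus FGF2, was -2.15 ± 0.49 and that of Gad1 -1.65 ± 0.63 (limma adjusted p = 0.980 for both). Dlx2, Insm1 and Neurog2 had 0.11 ± 0.26, -0.13 ± 0.33 and -0.22 ± 0.51. In the ethanol groups 0 of 5 passed by limma, 0% of all genes did, and 0 of 5 had an unadjusted p under 0.05, as 2.64% of all genes did. There the differences of the 5 genes lay between -0.07 and 0.21, with 1 doubted array on each side. Without those arrays the ethanol groups held 1 array each, so no spread between ethanol arrays was measured. The Gad1 difference was then -0.49 (0.17 ± 0.63 with all arrays) and that of Neurog2 -0.60 (-0.07 ± 0.51 with all). Dlx2, Insm1 and Neurod4 had -0.15, 0.27 and 0.09.

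The fit over all probe sets set the 13 side by side. Of these, 9 passed the filter, and 1455865_at of Insm1 was the 1 that rose in the average, where 0.167% of 20967 probe sets rose. The Dlx2 probe set was just outside (limma adjusted p = 0.0546), as was 1436694_s_at of Neurod4 (0.0576). The estimates lay above 0 for 13 of 13, where 55.1% of all probe sets did, though some were close to 0 (0.03 for Dlx5). The 13 cover 8 genes on the same arrays, and the genes were chosen with earlier results of these data known. This count is thus no separate evidence. Each further probe set of Insm1, Neurod4 and Gad1 had a smaller estimate than the one used for the gene, whereas for Gad2 the other probe set had the larger (0.67 against 0.49).

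**Figure D4:**
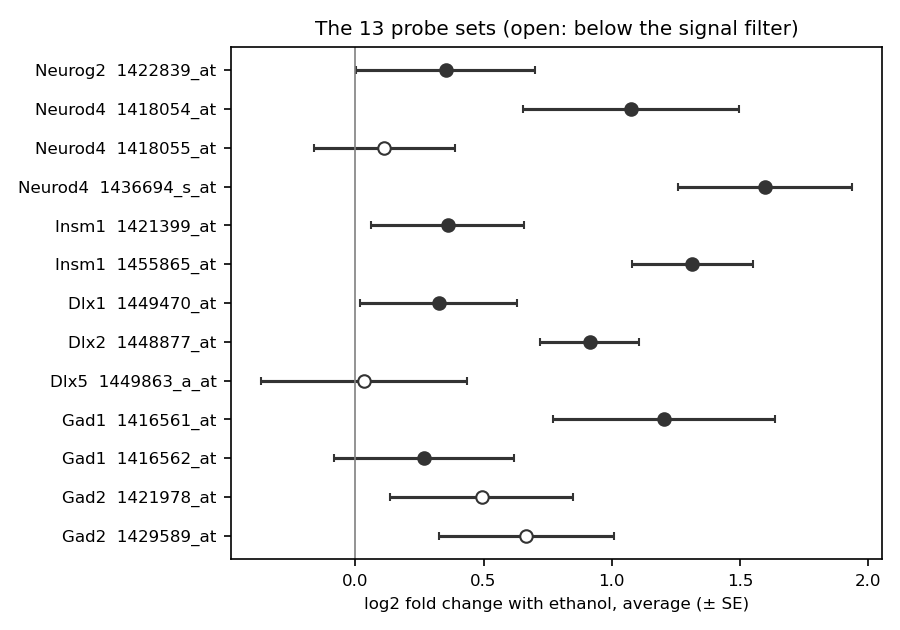
Log2 fold change with ethanol in the average (± SE) for each of the 13 probe sets, with open symbols for those below the filter of the probe set fit. The Insm1 probe sets stand at 0.36 and 1.31 and the Gad1 probe sets at 0.27 and 1.20.

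The wider lineage lists showed how many related transcripts were measured at all. Of 22 further proneural and early neuronal transcription factors, 8 were tested, 0 rose and 0 fell in the average, 4 lay above 0 and the median was 0.05, beside 0.03 over all genes tested. The highest in mean signal were Sox4 (0.12 ± 0.22), Sox11 (-0.24 ± 0.29) and Myt1 (0.66 ± 0.33), factors of early neuronal differentiation. Of the 22, 13 on the array were below the filter, among them Neurog1, Neurod2, Neurod6 and Scrt1. None of the 8 passed in the 5 other comparisons either.

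Of 24 further inhibitory lineage genes, 5 were tested and 0 rose or fell in the average. Of the 5, 4 lay above 0 with a median of 0.44, which is the Vip estimate itself (0.44 ± 0.87). Pvalb had 0.74 ± 1.06. In Ethanol and FGF2 Vip gave 325 and 39.3, and Pvalb 1179 and 62.3. In Ethanol and TGF-beta1 Vip gave 23.9 and 895, and Pvalb 1.82 and 695. Replicate 1 of each group is a doubted array. Abat, which breaks down GABA, had 0.61 ± 0.20 (limma adjusted p = 0.251), with signals of 1747 to 4166 without and 3829 to 4696 with ethanol. Meis2, a homeobox factor of striatal precursors, had 0.21 ± 0.16, and Maf -0.62 ± 0.70. Dlx6, Gsx1, Gsx2, Lhx6, Lhx8, Nkx2-1, Sst, Npy and the vesicular GABA transporter gene Slc32a1 were below the filter.

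Of 13 excitatory and dorsal genes, 4 were tested with 0 calls (median 0.06). Pax6, Emx2 and Neurod1 had 0.37 ± 0.22, 0.04 ± 0.28 and -0.06 ± 0.32, and Eomes, Tbr1 and both vesicular glutamate transporter genes were below the filter. Another list joined Notch pathway genes, including ligands, with Id genes and the repressor gene Rest. Many of these, though not all, hold back neurogenesis. Of its 17 genes, 16 were tested with 0 calls in the average (median 0.08). Notch2, Jag1 and Notch1 had 0.18 ± 0.17, -0.29 ± 0.20 and 0.06 ± 0.22. In that list Hey1, a Notch effector, had -0.77 ± 0.19 (limma adjusted p = 0.0986), and the ligand gene Dll1 0.79 ± 0.23 (0.183). Both were chosen after their values were seen, and neither passed.

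Markers of other cell states were read on the same arrays. Of 11 mitosis genes tested, 11 fell with ethanol in the average (median -3.37), where 1.8% of all genes fell, and their summed signal was 11816 to 38408 without and 1799 to 4068 with ethanol. Of 15 pan-neuronal markers 10 were tested: 0 rose in the average (median 0.55, 9 of 10 above 0), and Dcx, a microtubule protein of migrating neurons, rose within TGF-beta1 (2.70 ± 0.52, limma adjusted p = 0.0488). Dcx gave 314 and 742 in FGF2, 569 and 751 in Ethanol and FGF2, and 56.5 and 109 in TGF-beta1. In Ethanol and TGF-beta1 it gave 1013 and 413, the 1013 on a doubted array. The part of that array in the rise was not tested. The summed signal of the 15 pan-neuronal markers was 7357 to 16953 without and 12941 to 18769 with ethanol. Map2 alone gave 5331 to 10231 without and 7763 to 12179 with ethanol. Stmn2, Rbfox3, Nefl, Nefm and Gap43 of this list were below the filter. The 10 above it included Map2, Stmn3 and Ina as well as the synaptic genes Snap25, Syn1 and Syt1. The summed signal of 7 astrocyte markers was 31440 to 54099 without and 49630 to 55318 with ethanol, and 0 of 7 rose or fell. Gja1, Aldoc and Aqp4 make up most of this sum. Gfap ran from 61.9 to 2461 without and from 668 to 8284 with ethanol. The part of the mitosis decrease in the Insm1, Dlx2 and Neurod4 changes was not tested.

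FGF2 replicate 2 had the lowest mitosis level of the arrays without ethanol, 0.39 log2 units above the mean of 8 arrays against 1.72 to 2.15 on the others. On that array Dlx2 and Insm1 were at -0.36 and -0.65 relative to their own means, within the range of the other arrays without ethanol (-0.66 to -0.35 and -0.79 to -0.53). Gad1 was at 1.08 there and at -2.15 to -0.64 on the other 3. Neurod4 too was highest there, at 0.40 against -2.60 to 0.16. Neurog2, at 0.02, was within its range on the others (-0.93 to 0.36). Whether the level of any member follows that of the mitosis genes was not tested.

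**Figure D5:**
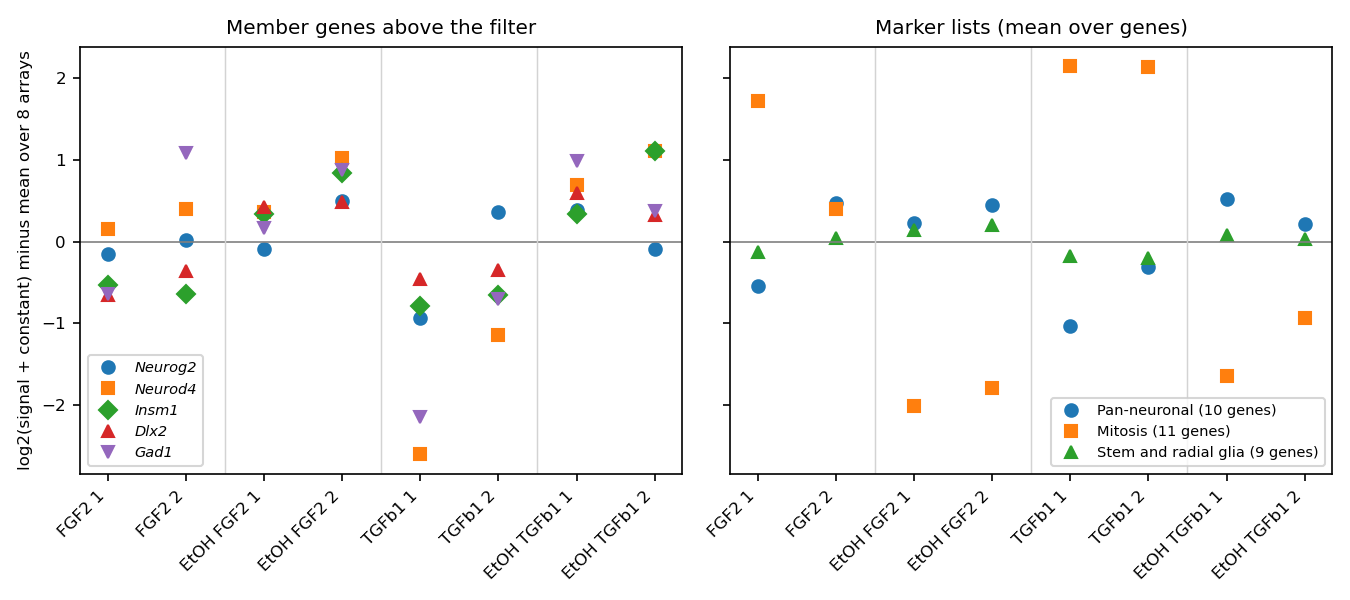
Level on each array, as log2(signal + 23.66) minus the mean over 8 arrays, for the 5 tested member genes (left) and as the mean over the tested genes of 3 marker lists (right), with vertical lines between groups. Insm1 and Dlx2 are above 0 on each ethanol array and below 0 on each other array, and the mitosis list is the reverse.

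For each tested member the 2 most alike genes were taken from 10911 others by the smallest root mean square difference of centred log2 values over 8 arrays. Insm1 was nearest to Sorcs2, a sortilin family receptor (0.14 log2 units, against a root mean square of 0.70 for the Insm1 profile itself), and to Cdh7, a cadherin (0.22). The Sorcs2 signal was 62.9 to 93.8 without and 185 to 331 with ethanol. Dlx2 was nearest to Tceanc2 (0.13, against 0.47 for its own profile) and Rab11fip5 (0.15). Neurod4 was nearest to Sez6, a neuronal membrane protein (0.39, against 1.18), and Slc7a11, the cystine transporter (0.50). Gad1 was nearest to Cbln1, a synapse organizer (0.33, against 1.04), and Crb1 (0.36). Cbln1 was, like Gad1, low in TGF-beta1 (121 and 215) and high on FGF2 replicate 2 (1063). Neurog2 (0.42) was nearest to Hoxa9 (0.19) and Ccnt2 (0.19). In the average the Sorcs2 and Sez6 estimates were 1.40 and 1.49, which follows from choosing genes by their likeness to Insm1 and Neurod4 and is no separate evidence.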

How the data were processed

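The deposited table holds the authors' MAS5 signal intensity per probe set and array on a linear scale, made with MAS5 and GCOS per the submitters' processing notes. Versions and settings are not given in the sources used here. Of 45101 probe sets, 64 were controls. Symbols came from the platform annotation, and only probe sets with 1 symbol were kept. Each gene was represented by the probe set of highest mean log2(signal + 23.66), where 23.66 is the 25th percentile over the table. The test took the 10916 of 18193 genes whose mean reached the 40th percentile (6.40), with no further normalization.

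All 8 arrays were fitted as 4 group means with limma 3.58.1 in R 4.3.3 (trend, 4 residual and 4.93 prior degrees of freedom), two-sided, and p-values were adjusted by Benjamini-Hochberg over all genes in each of 6 comparisons. The script was tested on simulated data for ethanol in the average. These had independent normal noise around 1 mean per gene, with no growth factor effect, no shared array effect and no doubted array. The counts that follow need not hold for the real arrays. Of 100 genes set to a log2 change of 1 in size, 39 were called, and of 100 set to 2, 75 were. Among the 10916 genes there were 9 false calls. A gene that was not called may thus still have changed. The number of arrays limits the precision. The 8 members, the gene lists, the naming rule (all members, the 2 most alike genes of each, and from each list the genes past the threshold and otherwise up to 3 of highest mean, with exceptions named where they stand) and the alternatives were chosen with earlier results of these data known. List genes without a probe set of 1 symbol were not analysed here.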

Additional observations from a re-analysis of the deposited data

How the results depend on the processing

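The 2 members called in the average became 3 with a constant of 100 or quantile normalization (Neurod4 gained), 1 with no filter (Insm1), 1 with the mean of probe sets (Dlx2), 0 without both doubted arrays, and 0 to 1 with each array left out. The 1 member called within TGF-beta1 became 0 with a constant of 8, the 60th percentile filter (which leaves out Neurod4), the mean of probe sets, no trend, the replicate number as a block or without both doubted arrays, and 0 to 1 with each array left out. Among the probe sets the count of 1 became 2 with a constant of 100, quantile normalization or the replicate block, 0 without both doubted arrays, and 0 to 1 with each array left out. In the other comparisons 0 members passed under each alternative run. The cause of these changes was not tested. The replicate numbers were not treated as pairs in the main fit. Deviations of equally numbered arrays correlated at 0.47 between FGF2 and TGF-beta1, the groups without a doubted array. They correlated at -0.44 between the ethanol groups, whose replicate 1 arrays are both doubted, and from -0.13 to 0.05 otherwise. These values do not settle whether the numbers mark pairs. With the replicate number as a block the Neurod4 change within TGF-beta1 stayed 2.78 and passed no more, and that of Dlx2 in the average stayed 0.91.

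Signs changed only for small estimates when 1 array was left out. The estimate ran from -0.018 to 0.57 for Neurog2 and from -0.56 to 1.16 for Gad1 within FGF2, and from -0.22 to 1.07 for Neurog2 within TGF-beta1. In the difference of the ethanol effects it ran from -0.49 to 0.80 for Neurog2 (-0.38 without both doubted arrays), from -0.12 to 0.66 for Insm1 and from -0.24 to 0.053 for Dlx2. In TGF-beta1 against FGF2 it ran from -0.86 to 0.43 for Neurog2 and from -0.040 to 0.26 for Dlx2. Over 18 alternatives the change in the average ran from 0.84 to 1.64 for Insm1 (10 past the threshold) and from 0.78 to 0.99 for Dlx2 (7 past it). Over 17 it ran from 0.93 to 1.96 for Neurod4 (4 past it), and over 16 from 1.70 to 3.51 within TGF-beta1 (5 past it).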

Other observations

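The array also held probe sets of antisense neighbours of the members, looked at after the other values were seen. Dlx1as, transcribed across the Dlx1 region, had signals of 2.36 to 30.1 without and 1.55 to 44.7 with ethanol, and Gad1os 32.0 to 86.2 without and 20.1 to 43.7 with ethanol. Both were below the signal filter, and their groups overlapped.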
